A study of Homo sapiens with 4 samples.

Results

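The axon guidance ligands and receptors of LN-229 glioblastoma cells were read by 171 of 54613 probe sets, which stand for 67 of 19775 genes. They were taken by gene symbol, as every probe set annotated to a single gene of the Eph receptor, ephrin, semaphorin, plexin, neuropilin, ROBO, SLIT or UNC5 families, or to NTN1, NTN4, DCC or NEO1. The rule uses gene symbols alone, although the families were picked with earlier results of these data known. LN-229 is an established human glioblastoma line. The 2 control cultures had no treatment, the 2 induced cultures received doxycycline for 48 h to express the WNT antagonist WIF1, and each culture was hybridised to its own 3' expression array. The labels call the cultures of a group biological replicates, and do not say whether the line carrying the WIF1 construct is 1 clone. No array had doxycycline without WIF1, so the drug and the protein cannot be told apart. All differences below are induced minus control in log2 intensity, with 2 arrays in each group.

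Axon guidance molecules are cues that attract or repel the tip of a growing nerve fibre, together with the receptors that read them. Ephrins are bound to the cell surface and signal through Eph receptor tyrosine kinases, secreted and membrane-bound semaphorins signal through plexins with or without neuropilins, SLIT proteins repel through ROBO receptors, and netrins act through DCC, neogenin and UNC5 receptors. Many of them end in small GTPases and the actin skeleton, and the same systems act in cell migration, blood vessel growth and glioma invasion.

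No member passed the test between the groups. At an adjusted p under 0.05, limma called 0 of the 171 probe sets, against 0% of all probe sets, and the smallest adjusted p of a member was 0.472. Without adjustment, 15 member probe sets (8.77%) stood at a p under 0.05, where 10% of all probe sets did. Of the 15, 2 (1.17%) were higher, against 4.75% of all probe sets, and 13 (7.60%) lower, against 5.27%. With arrays centred on their medians that split was 4 higher and 10 lower. Over genes, each taken by its brightest probe set, 5 of 67 (7.46%) reached that level against 11.2% of all genes. Both shares lay below those over all features in the fit with all arrays, but not in every setting. At or above the median level 14.3% of member probe sets stood at that p, against 12.7% of all, and without the intensity trend 10.5% did, against 8.89%. The 5 genes were the receptors EPHB3, NRP2, PLXND1 and NEO1, all lower, and the ligand SEMA6C, higher. The p of PLXND1 was not under 0.05 without the intensity trend, that of NEO1 was not with arrays centred on their medians or with cyclic loess, and each of the 5 lost it without at least 1 of the arrays. Without the second control the members at that p were 3 probe sets (1.75%, against 3.91% of all) and 1 gene, NRP2 (1.49%, against 3.94%). Without the first induced array they were 26 probe sets (15.2%, against 11.4% of all) and 8 genes (11.9%, against 11.4%).

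By sign, 40 member genes were lower (59.7%, against 51.2% of all genes) and 27 higher, with a median of -0.04 against -0.003 over all genes. Centring the arrays on their medians moved the members to -0.015 and all genes to 0.022. Of the 33 ligand genes, 17 were lower, with a median of -0.01. Of the 34 receptor genes, 23 were lower, with a median of -0.05, and this difference between ligands and receptors was not tested. Groups did not overlap in 43.3% of member genes, against 43.9% of all genes. On the lower side these were 22 members (32.8%, against 22.4% of all genes) and on the higher side 7, against 21.4% of all genes.

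**Figure D1:**
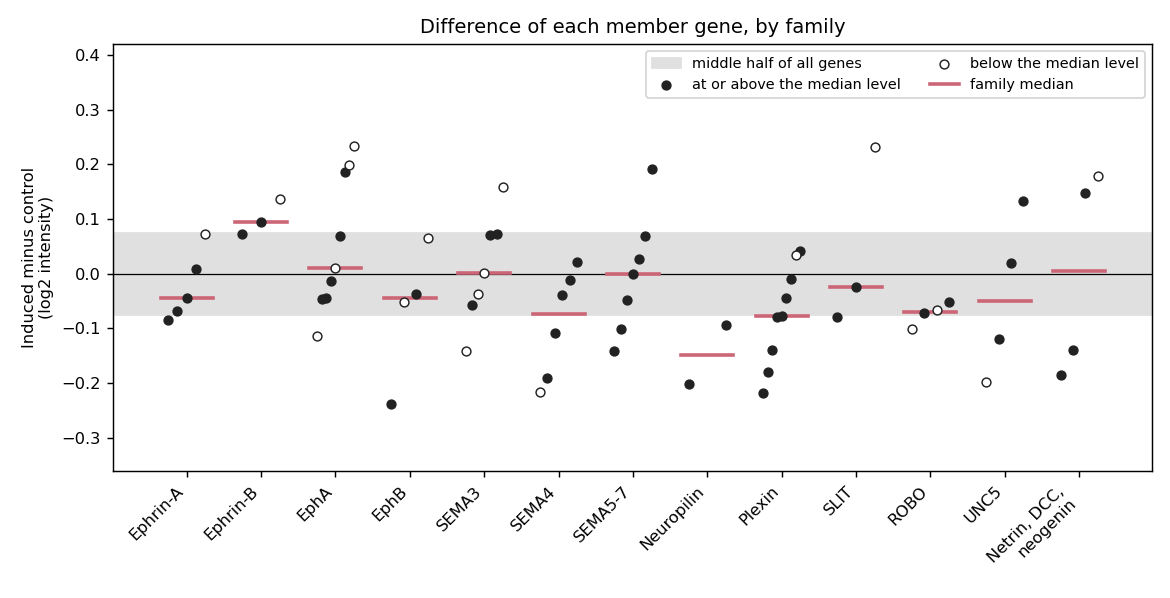
Difference of each of the 67 member genes (log2 intensity, induced minus control; vertical axis) by family, each gene taken by its brightest probe set. Filled points are genes with a mean of at least 6.16, the median over all probe sets, open points are dimmer genes, red lines are family medians, and the grey band runs from the lower to the upper quartile of all genes (-0.08 to 0.07). The 2 neuropilins lie lowest as a family, at a median of -0.15, and the 3 ephrin-B genes lie above 0.

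The stretches just upstream of the annotated transcription start are shown for the 4 receptor genes that were lower at an unadjusted p under 0.05, from RefSeq on GRCh38.p14, where 58 of the 67 members were matched. Each gives the 120 bases before the start, read 5′ to 3′ on the strand of the gene, with capitals marking GGGCGG, the GC box bound by SP1 family factors, or its reverse complement. The NRP2 stretch is chr2:205682381-205682500 (plus strand), that of PLXND1 chr3:129606677-129606796 (minus strand), that of EPHB3 chr3:184561665-184561784 (plus strand) and that of NEO1 chr15:73051782-73051901 (plus strand).
NRP2: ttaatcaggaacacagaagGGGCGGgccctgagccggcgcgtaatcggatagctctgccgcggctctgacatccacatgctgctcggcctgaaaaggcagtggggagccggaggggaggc
PLXND1: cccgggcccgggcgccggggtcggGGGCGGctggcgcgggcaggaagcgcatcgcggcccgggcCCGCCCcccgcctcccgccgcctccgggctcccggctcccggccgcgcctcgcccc
EPHB3: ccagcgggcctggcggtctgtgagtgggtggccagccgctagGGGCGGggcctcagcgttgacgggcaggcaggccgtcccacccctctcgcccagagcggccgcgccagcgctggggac
NEO1: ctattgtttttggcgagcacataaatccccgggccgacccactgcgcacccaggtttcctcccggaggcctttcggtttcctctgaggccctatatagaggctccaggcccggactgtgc
In the 250 bases before the start, GGGCGG stood in 42 of the 58 matched members (72.4%), in 56.3% of the 15384 matched genes on the array and in 42.3% of all 27305 promoters. CTTTGAT or CTTTGAA, the core bound by the TCF and LEF factors of canonical WNT signalling, stood on either strand in 3 of the 58 (5.17%), namely PLXNA1, SEMA6D and SLIT1, against 4.84% of the genes on the array. PLXNA1 differed by -0.01, SEMA6D by 0.03 and SLIT1 by 0.23. Each motif was searched on both strands and counted on its own, and TATAAA stood in 1 member, EFNB2, or 1.72%, against 8.31% of those genes.

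The neuropilins are co-receptors that hold secreted semaphorins and forms of VEGF and lend them to plexins or VEGF receptors, NRP1 best known for SEMA3A and NRP2 for SEMA3F. All 15 of their probe sets were lower by sign in the induced arrays, against 55.1% of all probe sets, with a median of -0.18. Of the 15, 7 stood at an unadjusted p under 0.05, a level that 5.27% of all probe sets reached on the lower side. These probe sets read 2 genes in the same 4 arrays and are not independent observations. The brightest NRP2 probe set read 8.33 and 8.26 without induction and 8.09 and 8.09 with it. Both induced arrays lay below both controls, by more than the gap between the controls themselves. The difference was -0.20 (SE 0.057, 95% interval -0.34 to -0.06, adjusted p = 0.472 in limma), or 0.87-fold. Across the 11 NRP2 probe sets the differences ran from -0.37 to -0.06, with a median of -0.20, and 7 of the 11 had groups that did not overlap, where 23.5% of all probe sets were lower in that way. The largest was at the third set by brightness, with 7.82 and 7.85 without induction and 7.59 and 7.34 with it.

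For NRP1 the brightest set gave a smaller difference than for NRP2, a contrast that was not tested. It read 8.63 and 8.69 without induction and 8.50 and 8.62 with it, a difference of -0.09 (SE 0.063, 95% interval -0.25 to 0.06, adjusted p = 0.628). Here the second induced array almost reached the first control. The next probe set read 8.46 and 8.47 without induction and 8.32 and 8.13 with it, a difference of -0.24 (SE 0.076, adjusted p = 0.472). The other 2 NRP1 probe sets were dim and differed by -0.05 and -0.03. Among the NRP2 sets, 6 of 11 stood at an unadjusted p under 0.05 with all arrays. Leaving out the first control left 1 and the second control 1, where 7.81% and 3.91% of all probe sets stood at that p. Leaving out the first induced array left 6 and the second 4, where 11.4% and 4.80% of all did. The sign was kept by 10, 10, 11 and 8 of the 11 NRP2 sets in that order, and by 4, 3, 4 and 2 of the 4 NRP1 sets.

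The gap between the 3' and 5' signals of a transcript, a rough sign of RNA quality, differed slightly between the groups for ACTB and GAPDH. For ACTB the signal at the 3' end minus that at the 5' end was -0.036 and 0.021 without induction and 0.033 and 0.11 with it, and for GAPDH it was -0.067 and -0.069 against -0.043 and -0.047. For the added dap control RNA it was 2.59 and 2.69 without induction and 2.66 and 2.93 with it, so these groups overlapped and the second induced array was highest. Without that array the median over the 11 NRP2 probe sets was -0.15 and 8 of them were lower by sign. The part of these signals in the neuropilin values was not tested.

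**Figure D2:**
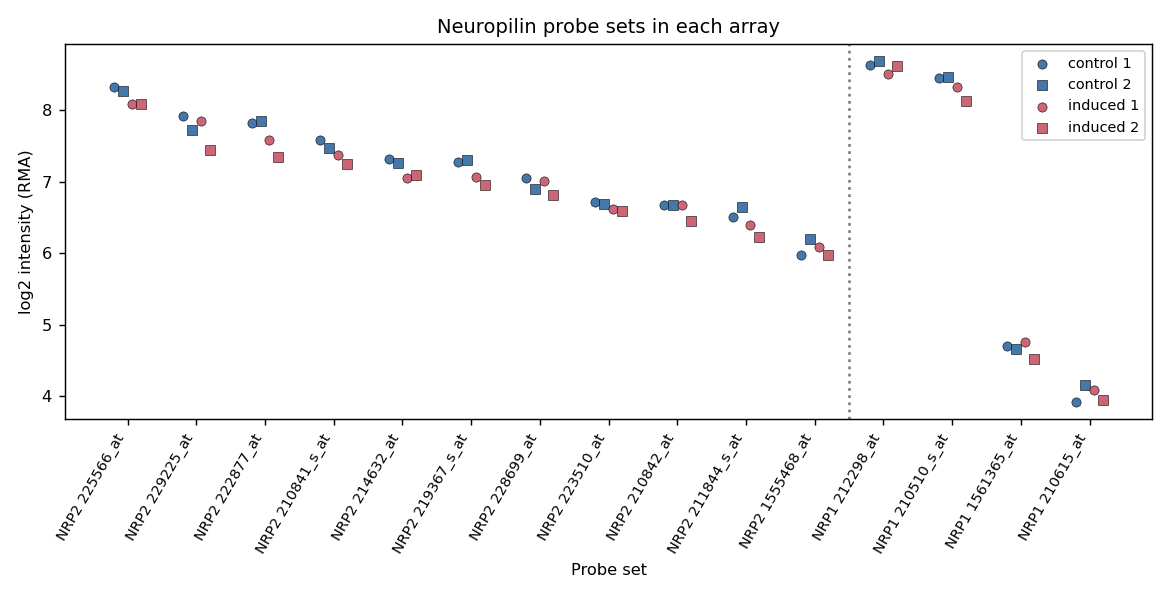
Log2 intensity (vertical axis) of the 11 NRP2 and 4 NRP1 probe sets in each of the 4 arrays, sorted by mean level within each gene; blue marks controls, red marks induced arrays, circles replicate 1 and squares replicate 2. In 7 NRP2 sets both red points lie below both blue points, and in several sets, such as the third with 7.59 and 7.34, the second induced array is the lower one.

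Plexins are the signalling receptors of the semaphorins and carry an intracellular GTPase-activating domain. Of 9 plexin genes 7 were lower, with a median of -0.08 (-0.05 with arrays centred on their medians), and 1 stood at an unadjusted p under 0.05, against 4.73% of all genes on the lower side. That gene was PLXND1, the receptor of SEMA3E, which also acts in vessel patterning. Its brightest probe set read 9.08 and 9.26 without induction and 8.93 and 8.98 with it. The induced arrays lay below both controls, while the controls were further apart than the induced arrays. The difference was -0.22 (SE 0.069, 95% interval -0.38 to -0.05, adjusted p = 0.472), and -0.13 without the second control. Its 2 other probe sets gave -0.13 and -0.08.

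PLXNA2, which pairs with neuropilins, read 6.996 and 7.07 without induction and 6.94 and 6.77 with it, a difference of -0.18 (SE 0.087, adjusted p = 0.533). Its dimmer probe sets pointed the other way, at 0.08 and 0.11. The other A plexins PLXNA1, PLXNA3 and PLXNA4 stood at -0.01, 0.04 and 0.03, and the dimmer PLXNA3 sets at -0.19 and -0.15. The B plexins were all slightly lower by sign at the brightest set, PLXNB1, the SEMA4D receptor, at -0.08 with 0.09 at its other set, PLXNB2, bound by SEMA4C, at -0.04 and PLXNB3 at -0.14. PLXNC1, the receptor of SEMA7A, had probe sets that disagreed. The brightest gave -0.08, while the next read 6.02 and 6.10 without induction and 6.29 and 6.30 with it, a difference of 0.23 (SE 0.084, adjusted p = 0.477).

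Among the secreted SEMA3 ligands, which use these receptors, none of 7 genes stood at an unadjusted p under 0.05, against 11.2% of all genes. The median of the 7 was 0.002. SEMA3C, a ligand of both neuropilins, read 9.53 and 9.48 without induction and 9.46 and 9.69 with it. The groups overlapped, and the difference of 0.07 had a 95% interval of -0.12 to 0.26 (adjusted p = 0.769). SEMA3F, the usual NRP2 ligand, read 8.33 and 8.25 against 8.30 and 8.43, a difference of 0.07 (SE 0.069, adjusted p = 0.742), with -0.005 and -0.23 at its other sets. SEMA3A read 7.57 and 7.57 without induction and 7.73 and 7.31 with it, so the induced arrays stood on either side of the controls. The brightest probe set of SEMA3B differed by -0.14, and those of SEMA3D, SEMA3E and SEMA3G, all below the median level of 6.16, by 0.002, 0.16 and -0.04.

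The SEMA4 ligands are membrane-bound, and 5 of 6 were lower by sign, with a median of -0.07 (-0.05 with arrays centred on their medians). SEMA4D, which signals to PLXNB1, read 6.38 and 6.44 without induction and 6.18 and 6.26 with it. These groups did not overlap, but the difference of -0.19 (SE 0.084, 95% interval -0.39 to 0.01, adjusted p = 0.512) did not pass, and the other SEMA4D probe set gave 0.09. SEMA4A read 7.48 and 7.44 against 7.39 and 7.32, a difference of -0.11 (SE 0.067, adjusted p = 0.598), with 0.04 at its other set. SEMA4C, the PLXNB2 ligand, was at 9.91 and 9.90 without induction and 9.90 and 9.94 with it, within 0.05 of each other in all 4 arrays, and its second probe set gave -0.17. SEMA4G differed by -0.22 with 0.07 at its other set, SEMA4B by -0.04 and SEMA4F by -0.01.

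SEMA6C, a transmembrane semaphorin, was the one member gene higher at an unadjusted p under 0.05. It read 7.06 and 6.95 without induction and 7.15 and 7.25 with it, in a single probe set, and the groups did not overlap. The difference of 0.19 (SE 0.079) had a 95% interval of 0.0002 to 0.38 and an adjusted p of 0.499. Its unadjusted p stood at the edge of the threshold, which 6.48% of all genes passed on the higher side, and it was lost without the intensity trend and without any 1 of the 4 arrays. SEMA5B differed by -0.14 (SE 0.074, adjusted p = 0.555), from 7.17 and 7.22 to 7.10 and 7.01. SEMA5A, whose 3 probe sets stayed between -0.05 and 0.03, SEMA6A at -0.10, SEMA6B at 0.0002, SEMA6D at 0.03 and SEMA7A at 0.07 made up the rest of the group. The 4 dimmer SEMA6D sets were all lower by sign, down to -0.19, and the dimmer SEMA7A set gave -0.24.

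**Figure D3:**
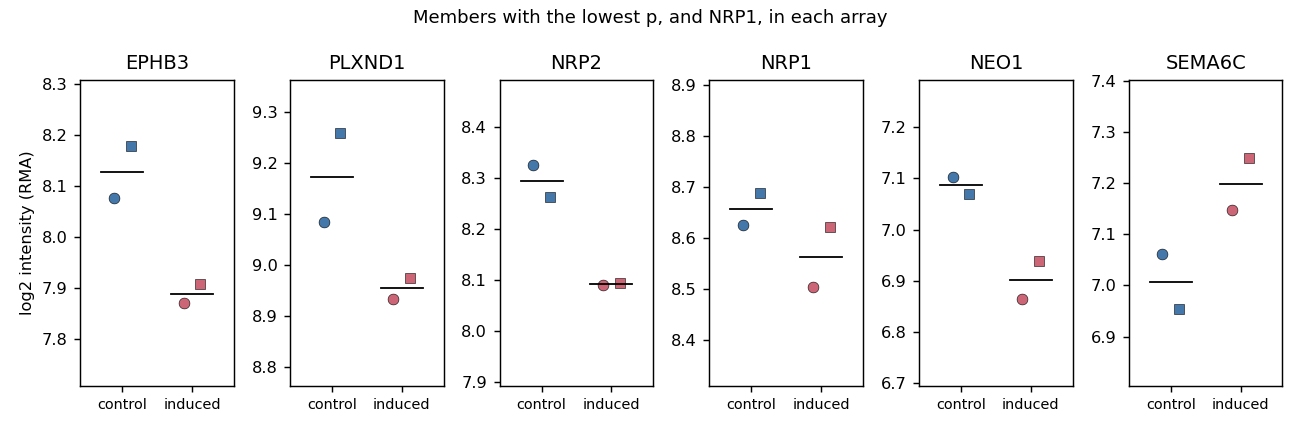
Log2 intensity (vertical axes, each spanning 0.6 units around its gene) of the brightest probe set of 6 members in control (blue) and induced (red) arrays; circles are replicate 1, squares replicate 2 and bars group means. EPHB3, PLXND1, NRP2, NRP1 and NEO1 have both induced arrays below both controls and SEMA6C has both above, while the gap between groups is small for NRP1, at -0.09.

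Eph receptors are the largest family of receptor tyrosine kinases, and the B class binds the transmembrane ephrin-B ligands. EPHB3 had the smallest p of the member genes. It read 8.08 and 8.18 without induction and 7.87 and 7.91 with it, so that the induced arrays lay together below both controls. The difference was -0.24 (SE 0.064, 95% interval -0.39 to -0.08, adjusted p = 0.472), or 0.85-fold, and its other probe set gave -0.10. EPHB4, the receptor of ephrin-B2, read 7.39 and 7.41 against 7.37 and 7.36, a difference of -0.04 (SE 0.064, adjusted p = 0.872), with -0.14 at its second set. EPHB1 and EPHB6, both below the median level, stood at -0.05 and 0.06. EPHB2 also fits the rule but has no probe set in the annotation used, so it was not read.

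The 3 ephrin-B genes were all higher by sign, with a median of 0.09 (0.12 with arrays centred on their medians). EFNB2, the ligand of EPHB4, read 10.74 and 10.70 without induction and 10.77 and 10.81 with it. The groups did not overlap, yet the difference was 0.07 (SE 0.039, 95% interval -0.02 to 0.17, adjusted p = 0.560), and the other probe set pointed down at -0.13. EFNB3 read 6.84 and 6.77 without induction and 6.74 and 7.06 with it, a difference of 0.09 (SE 0.12, adjusted p = 0.802) that turned to -0.065 without the second induced array. EFNB1 lay just below the median level and differed by 0.14 (adjusted p = 0.633).

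None of the 9 EPHA genes stood at an unadjusted p under 0.05 by its brightest probe set, against 11.2% of all genes. The median of the 9 was 0.01. EPHA2, a receptor often abundant in glioblastoma, read 9.55 and 9.65 without induction and 9.54 and 9.57 with it. The difference of -0.05 (SE 0.053, 95% interval -0.17 to 0.08, adjusted p = 0.792) was smaller than the spread of the controls. EPHA8 differed by 0.19 (SE 0.098, adjusted p = 0.554), from 6.39 and 6.48 to 6.52 and 6.72, with -0.13 at its dimmer set.

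EPHA3 and EPHA4 also had probe sets that disagreed. For EPHA3, a receptor studied in glioma stem-like cells, the bright set read 9.14 and 9.03 without induction and 9.06 and 9.10 with it, a difference of -0.01. Its next set, below the median level, read 5.94 and 6.06 against 5.77 and 5.34, a difference of -0.45 (SE 0.15, adjusted p = 0.472) carried mostly by the second induced array. For EPHA4 the brightest set gave 0.07, while 3 others, also above the median level, gave -0.26, -0.18 and -0.21. In each of those 3 the second induced array was lowest, at 7.43, 7.46 and 7.31. EPHA1, EPHA5, EPHA6, EPHA7 and EPHA10 differed by -0.11, 0.01, 0.23, 0.20 and -0.05, all but EPHA10 below the median level. The 2 dimmer EPHA10 sets gave 0.14 and 0.03, and those of EPHA7 ran from -0.30 to 0.22. Those of EPHA5 gave 0.13 and -0.26, the latter from 2.40 and 2.58 without induction to 2.20 and 2.25 with it.

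The ephrin-A ligands are anchored to the membrane by a lipid. At their brightest sets they showed small differences, with a median of -0.04 over 5 genes (0.001 with probe sets averaged). EFNA1, the ligand of EPHA2, was at 8.48 and 8.45 without induction and 8.45 and 8.50 with it, a difference of 0.01 (SE 0.054). EFNA5 differed by -0.04 and EFNA2 by 0.07. The other EFNA5 sets gave -0.03, -0.01 and, at the dimmest, 0.24, and the other EFNA2 sets 0.08 and -0.15. EFNA4 read 7.49 and 7.43 against 7.45 and 7.30, a difference of -0.09 (SE 0.078, adjusted p = 0.723), and EFNA3 read 7.07 and 7.19 against 7.08 and 7.05, a difference of -0.07 (SE 0.076, adjusted p = 0.780). In both of these the groups overlapped.

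**Figure D4:**
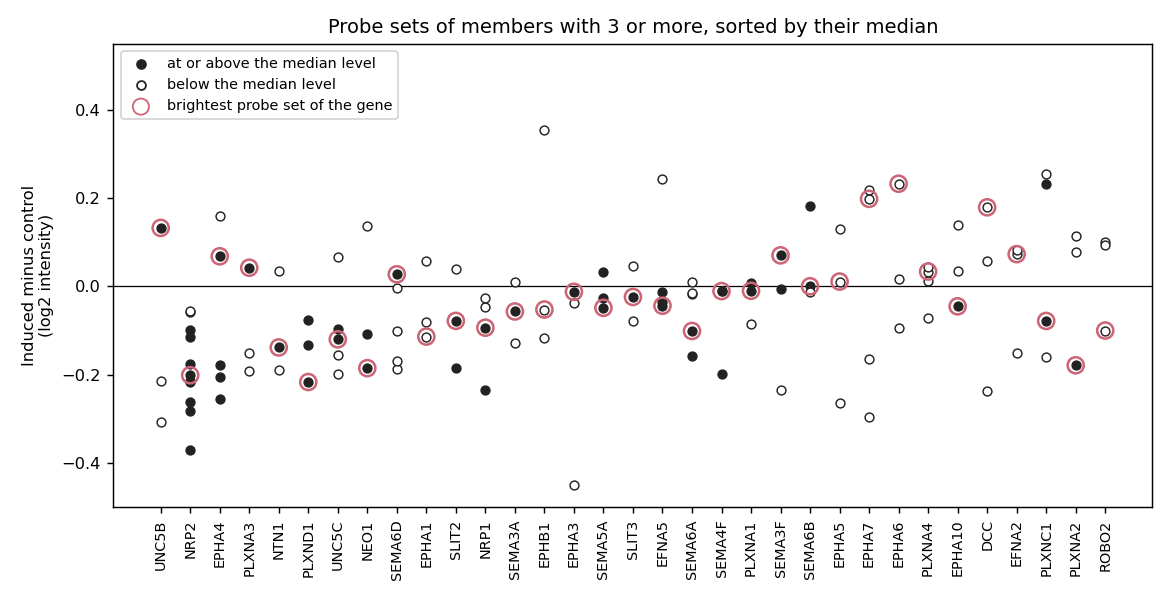
Difference of every probe set (log2 intensity, induced minus control; vertical axis) of the members with at least 3 probe sets, ordered along the horizontal axis by their median; filled points are at or above the median level, open points below it, and red rings mark the brightest set. All 11 NRP2 sets lie below 0, while 10 of the 33 genes (EPHA4, EPHA7, EPHA10, PLXNA2, PLXNA3, PLXNC1, ROBO2, SEMA3F, SEMA6D and UNC5B) have the ringed set on the other side of 0 from most of their other sets.

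ROBO1, a receptor through which SLIT proteins repel migrating cells, read 10.76 and 10.75 without induction and 10.61 and 10.75 with it. The second induced array was level with the controls, and the difference was -0.07 (SE 0.053, 95% interval -0.20 to 0.06, adjusted p = 0.655). ROBO3, which modulates the response to SLIT, differed by -0.05 (SE 0.067, adjusted p = 0.814), from 8.01 and 8.11 to 8.04 and 7.98. ROBO2 at -0.10 and ROBO4, known from endothelial cells, at -0.07 were below the median level. By the brightest set all 4 ROBO genes were lower by sign, each with a 95% interval that includes 0. The 2 other ROBO2 sets gave 0.10 and 0.09 and the other ROBO4 set 0.11, so over the 7 ROBO probe sets 4 were lower and 3 higher. SLIT2 read 6.77 and 6.81 without induction and 6.75 and 6.67 with it, a difference of -0.08 (SE 0.077, adjusted p = 0.743). SLIT3 differed by -0.02 (SE 0.099, adjusted p = 0.955), a sign that turned with arrays centred on their medians and with cyclic loess, and the dim SLIT1 differed by 0.23 (adjusted p = 0.666).

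NEO1, neogenin, is a relative of DCC that binds netrins and repulsive guidance molecules. It read 7.10 and 7.07 without induction and 6.86 and 6.94 with it, and the gap between the groups exceeded that within each. The difference was -0.19 (SE 0.073, 95% interval -0.36 to -0.01, adjusted p = 0.490), or 0.88-fold, and its p was not under 0.05 without the first control, the second control or the first induced array. A second set gave -0.11 and another, dim, 0.14, and the average of all 3 gave -0.053. DCC was below the median level, with 0.18, -0.24 and 0.06 at its 3 sets. NTN4, a netrin of basement membranes, read 7.31 and 7.10 without induction and 7.42 and 7.28 with it, a difference of 0.15 (SE 0.096, adjusted p = 0.617). NTN1, the founding netrin cue, differed by -0.14 (SE 0.12), with groups that overlapped.

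The UNC5 proteins are netrin receptors that mediate repulsion. UNC5B read 7.67 and 7.53 without induction and 7.71 and 7.75 with it at its brightest set, a difference of 0.13 (SE 0.074, adjusted p = 0.571). Its dimmer sets gave -0.21 and -0.31, so no direction can be given for the gene. UNC5C read 7.81 and 7.92 against 7.73 and 7.76, a difference of -0.12 (SE 0.068, adjusted p = 0.573), with 4 of its 5 sets lower by sign. UNC5A differed by 0.02 and the dim UNC5D by -0.20.

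**Figure D5:**
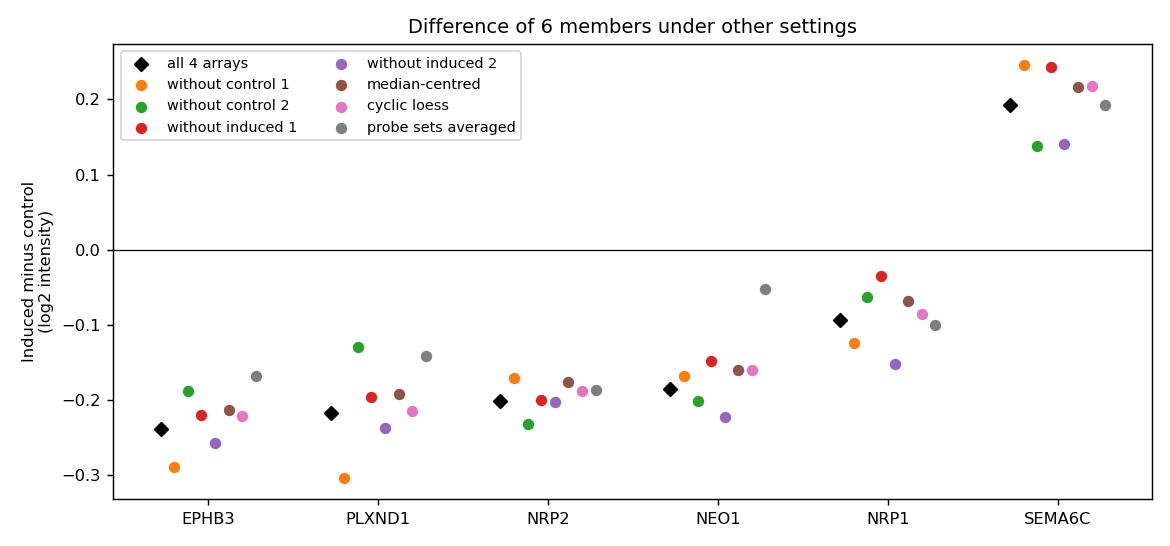
Difference (log2 intensity, induced minus control; vertical axis) of 6 members with all 4 arrays (black diamonds) and under 7 other settings (coloured circles). EPHB3, PLXND1, NRP2, NEO1 and NRP1 stay below 0 and SEMA6C above 0 in each of them, with NRP2 between -0.23 and -0.17. In all 6 the groups did not overlap, so leaving out an array could not turn the sign.

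Genes that pass guidance signals on, or that sit beside the receptors, were read by 72 of 77 listed symbols. None passed the adjusted threshold, and 16 (22.2%) stood at an unadjusted p under 0.05, 7 higher and 9 lower, against 11.2% of all genes. At or above the median level, where 64 of the 72 lay, 15 (23.4%) stood at that p, against 13.3% of all genes. With arrays centred on their medians the split was 9 higher and 6 lower, and without the second control or without the second induced array the count was 6 (8.33%), against 3.94% and 5.12% of all genes. The kinase ABL2, which remodels actin below several guidance receptors, read 10.38 and 10.36 without induction and 10.59 and 10.66 with it, a difference of 0.25 (SE 0.042, adjusted p = 0.413), with its 3 sets between 0.008 and 0.25. ENAH, which extends actin filaments, differed by 0.30, but its 6 sets ran from -0.38 to 0.30. MET, the receptor kinase that associates with B plexins, differed by 0.26, and its 4 sets ran from -0.29 to 0.26. The shedding protease ADAM17 differed by 0.17, the RAC regulator CHN1 by -0.14 and the adaptor NCK2, which links ROBO and Eph receptors to actin, by -0.14, with adjusted p values of 0.472 for each. The 3 ADAM17 sets ran from -0.07 to 0.17, and CHN1 and NCK2 had 1 set each. The median of the whole list was -0.04.

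The single WIF1 probe set lay near the floor, at 2.98 and 2.90 without induction and 2.93 and 3.03 with it, which leaves induction unchecked in these arrays. Of the 12 astrocyte and glioma lineage markers, 9 were at or above the median level in these cells, with VIM, NES and CD44 among them and GFAP, SOX9 and AQP4 below it. Their summed log2 level was 109.0 and 109.4 without induction and 108.5 and 108.3 with it. At an unadjusted p under 0.05 in limma, 4 of the 12 were lower (FABP7, S100B, SOX2 and AQP4) and 0 higher. Of all genes, 4.73% were lower and 6.48% higher at that p. Marker lists of neurons, oligodendrocytes, leukocytes, endothelial and epithelial cells each had at most 1 gene at that p in either direction. These were SYT1 (0.35) and TEK (0.32), higher, and TUBB3 (-0.08) and MBP (-0.23), lower. The part of these shifts in the receptor values was not tested.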

How the data were processed

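The values are log2 intensities per probe set as deposited by the authors, and the submitters' processing notes name RMA and affy, whose versions are not given in the sources used here. RMA makes array distributions alike, so a change shared by most genes would not be seen. Of 54675 rows, 62 control probe sets were left out, and genes were named through the platform annotation (41091 probe sets with 1 symbol, 1801 with several, 11721 with none). All 171 member sets matched the RefSeq gene table by gene identifier. A gene stands for its probe set with the highest mean. Groups came from sample titles. Differences were fitted over 54613 probe sets with limma 3.58.1 in R 4.3.3 (lmFit, eBayes with an intensity trend, 2-sided, 6.27 degrees of freedom) and adjusted by Benjamini-Hochberg over all of them, with a threshold of 0.05. The fit was tested on simulated data with known changes. These changes were larger than nearly all differences described here, so recovery of small differences was not tested. Only 2 arrays per group limit the precision.

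Members and lists were chosen with earlier results of these data known. In each family the genes of smallest p at or above the median level (6.16) were described with full statistics, at least 2 where available, with every such gene at an unadjusted p under 0.05, and from the list of signalling partners the 6 of smallest p at that level. The remaining members were described to account for each family. Alternatives were a replicate block, eBayes without trend or robust, 2 filters on dim sets, median centring, cyclic loess, averaging probe sets per gene and leaving out each array, with the lone array taken to vary as the other group does.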

Additional observations from a re-analysis of the deposited data

How the results depend on the processing

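In none of the settings run did a member pass the adjusted threshold, while over all probe sets 2 passed with robust eBayes, 5 with median centring and 11 with cyclic loess, against 0 in the other settings fitted on probe sets, and over all genes 9 passed when probe sets were averaged. Member genes at an unadjusted p under 0.05 numbered 5, 3 with the replicate block (EPHB3, NRP2 and PLXND1, without NEO1 and SEMA6C), and 1 to 8 when an array was left out. Member probe sets at that p numbered 15 (8.77%, against 10% of all probe sets), and 12 with the replicate block (7.02%, against 8.10%). The list of signalling partners gave 16 genes, 10 without the intensity trend and 6 to 17 without an array. The median over member genes was -0.04, -0.015 with median centring, -0.023 with cyclic loess, and -0.055 to -0.021 without an array. Signs turned for SLIT3 (0.00058 with centring, 0.00079 with loess, 0.03 without the second control, 0.077 without the first induced array), for EPHA2 (0.0084, from -0.099 over the arrays left out) and ROBO3 (0.0027, from -0.11) without the second control, for EFNB3 (-0.065, up to 0.25) and SEMA3C (-0.041, up to 0.19) without the second induced array, and for EFNB2 (-0.031), SEMA3F (-0.056), PLXNA2 (0.0044), UNC5B (-0.13) and MET (-0.031) when probe sets were averaged. The cause of these turns was not tested, except that averaging mixes probe sets that disagree. The other 17 of the 26 members described with full statistics kept their sign in every setting run. The block, the eBayes variants and the filters leave a difference unchanged, so these settings could not turn a sign. Where the groups did not overlap, leaving out an array could not turn it either. Of the 41 remaining members 27 turned in at least 1 setting, 20 of them when an array was left out (SEMA3A, SEMA3G, EFNA1 and EPHA3 among them). Same-numbered arrays of the 2 groups deviated together only weakly (r = 0.056 over probe sets), so the numbers were not taken to pair them, and the block changed no call at the adjusted threshold.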

Other observations

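Cell adhesion molecules of the L1 family, which form receptor complexes with neuropilins, were in the list of signalling partners and were singled out after their values were seen. CHL1 read 5.56 and 5.83 without induction and 5.23 and 5.07 with it, a difference of -0.54 (SE 0.13, adjusted p = 0.472 in limma), and its other probe set gave -0.36. Both sets lay below the median level. L1CAM read 6.55 and 6.57 against 6.37 and 6.23, a difference of -0.26 (SE 0.087, adjusted p = 0.472), with -0.22 at its other set. NRCAM differed by -0.27 (SE 0.10, adjusted p = 0.488), but its dim second set gave 0.12. CNTN2, a contactin that binds L1 proteins, differed by -0.28 (SE 0.095, adjusted p = 0.472), with -0.02 at a dim second set. NFASC, a further L1 family gene outside the list, differed by -0.08 (SE 0.082, adjusted p = 0.755), with groups that overlapped. None of these passed the adjusted threshold. In the settings that held them, by brightest set or by the average of sets, CHL1, L1CAM, CNTN2, NRCAM and NFASC kept their sign. Differences ran from -0.68 to -0.41 for CHL1 and from -0.33 to -0.19 for L1CAM. They ran from -0.40 to -0.15 for CNTN2, from -0.40 to -0.07 for NRCAM and from -0.12 to -0.04 for NFASC. The weakest values of CNTN2 and NRCAM came with probe sets averaged. For all but NFASC the groups did not overlap, so leaving out an array could not turn the sign. The block, the eBayes variants and the filters leave a difference unchanged.

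A bright probe set annotated to both SEMA3B and a microRNA gene was left out of the members because it names several genes. It read 8.59 and 8.62 without induction and 8.38 and 8.54 with it, a difference of -0.14 (SE 0.069, adjusted p = 0.537), with groups that did not overlap.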
